A study of Homo sapiens with 2 samples.

Results

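The genes that store, import, release and sense iron were examined in doxorubicin-resistant triple-negative breast cancer cells. The set holds 10 genes, chosen by name from the 23368 gene symbols in the files: the ferritin subunits FTH1 and FTL, the importers and the reductase TFRC, SLC11A2 and STEAP3, the exporter SLC40A1, the iron sensors ACO1 and IREB2, the ferritin receptor NCOA4 and the iron-sensing surface protein HFE. All 10 symbols were found. They are listed by name and not by a cutoff, but the set was drawn up with earlier results of these data known, among them the high level of FTH1 and FTL. The cells were SUM159, a triple-negative breast cancer line with the genotype given as Wt. The study describes cells of this line as spread between epithelial-like and highly mesenchymal states. They were cultured as an attached monolayer and had become resistant to doxorubicin. The study made them by exposure to escalating doses for 2 days, with a drug-free recovery period afterwards. Its methods do not say whether drug was present at harvest. Polyadenylated RNA was sequenced in bulk from 2 libraries, replicates 1 and 2 of this single condition, and both received the same treatment. Treatment-naïve and paclitaxel-resistant libraries were not analysed here, so the values are levels in resistant cells and carry no change against untreated cells. Neither the labels nor the methods say whether the resistant cells were a clone or a mixed population. The study's single-cell data split doxorubicin-resistant monolayer cells into several clusters by expression, which does not settle this.

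The libraries held 23044084 and 17985508 counts in genes, and values are given as counts per 1000000 counts of a library (CPM). No source names separate cultures, and SDs then measure a spread that may be technical. The p-values compare the libraries with counting error only and measure no spread between replicates. The labelled cell type was checked by markers. VIM, an intermediate filament of mesenchymal cells, had 7542 ± 873 CPM (SD, n = 2). Some epithelial genes were also expressed, KRT7 with 703, ITGA6 with 371, KRT18 with 346 and KRT8 with 265 CPM on average. They were named after their values were seen. Of the epithelial markers used by the study, TP73, CDH3 and ITGA6, only ITGA6 is given here. These genes therefore do not place the cells between epithelial-like and mesenchymal states. ESR1 had 11 and 9 counts and PGR 2 and 0, whereas ERBB2 had 99.7 ± 6.56 CPM (SD, n = 2). Of cells with iron handling of their own, the erythroid list had 9 of 12 markers at 0 and summed to 12.4 and 10.1 CPM, nearly all of it EPOR, and HBB and ALAS2 were at 0. The hepatocyte list had 7 of 11 markers at 0, among them ALB and HAMP, and summed to 5.55 and 2.61 CPM. The macrophage list had 1 of 9 at 0, the mannose receptor MRC1, and summed to 50.1 and 30.4 CPM, mostly CD68 and CD14. In bulk RNA a level cannot be split into the share of cells that express a gene and the RNA per cell.

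Iron enters most cells bound to transferrin through the transferrin receptor, is reduced and released from endosomes, and is stored inside the shell of ferritin, which is built of heavy and light subunits. When iron is scarce, the iron regulatory proteins bind hairpins in mRNAs called iron-responsive elements: near the start of ferritin mRNA they block translation, and at the end of transferrin receptor mRNA they protect it from decay. Ferritin mRNA is therefore not a direct measure of ferritin protein. Doxorubicin binds iron and cycles between redox states, and its toxicity to the heart is linked to iron.

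The hairpins are shown because iron-responsive elements are the sites at which the iron sensors meet their mRNAs. A pattern was searched on the sense strand of the canonical transcript of each coding gene (GENCODE on GRCh37): a C, 5 bases, a loop of CAGTGN or CAGAGN, and 5 bases that pair with the first 5, G with U allowed. It was found in 5 of the 10 genes, with 9 matches in all, and in 2.61% of 19894 coding genes searched. FTH1, FTL and SLC40A1 held it in the 5′ UTR, where 0.166% of coding genes did, and TFRC held 5 matches in the 3′ UTR. STEAP3 also had a match in the 3′ UTR, with the CAGAGN loop and pairs of G with U in its stem. The share of coding genes with a match in the 3′ UTR was not computed. A match is a description of the letters and not a tested site. No match says only that these letters are not in the transcript searched, as for SLC11A2, IREB2, ACO1, NCOA4 and HFE, and other isoforms were not searched. In the lines that follow, written 5′ to 3′ as DNA of the mRNA strand, capitals mark the loop.
FTH1, 5′ UTR, chr11:61735046-61735074, minus strand: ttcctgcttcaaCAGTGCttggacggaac
FTL, 5′ UTR, chr19:49468592-49468620, plus strand: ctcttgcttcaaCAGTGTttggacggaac
SLC40A1, 5′ UTR, chr2:190445387-190445415, minus strand: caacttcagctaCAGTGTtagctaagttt
TFRC, 3′ UTR, chr3:195777900-195777928, minus strand: atttatcagtgaCAGAGTtcactataaat
TFRC, 3′ UTR, chr3:195777850-195777878, minus strand: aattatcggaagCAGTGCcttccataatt
TFRC, 3′ UTR, chr3:195777446-195777474, minus strand: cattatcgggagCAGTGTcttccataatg
TFRC, 3′ UTR, chr3:195777381-195777409, minus strand: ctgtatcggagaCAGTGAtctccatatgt
TFRC, 3′ UTR, chr3:195777334-195777362, minus strand: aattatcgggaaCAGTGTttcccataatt
STEAP3, 3′ UTR, chr2:120021347-120021375, plus strand: ccaaggctcttgCAGAGCtagggctctga
The ferritin hairpins shared 26 of 29 bases. With that of FTH1 the hairpin of SLC40A1 shared 13, those of TFRC 9 to 11 and the match in STEAP3 12. The search pattern fixed some of these bases, so part of the identity was set in advance. The identity between unrelated matches was not computed.

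Both ferritin genes were among the most abundant of all genes. FTH1 encodes the heavy subunit, which oxidizes iron as it enters the shell, at chr11:61727190-61735106 of GRCh37, minus strand. It had 126813 counts in replicate 1 and 68988 in replicate 2, which are 5503 and 3836 CPM. By its mean of 4669 ± 1179 CPM (SD, n = 2) it ranked 6 among all symbols, below GAPDH at 4737 ± 904 CPM and above MYH9 at 3992 ± 1509 CPM, and the ranges of these 3 genes overlapped. FTL encodes the light subunit, which helps to form the iron core, at chr19:49468566-49470136, plus strand. It had 86025 counts in replicate 1 and 46780 in replicate 2, which are 3733 and 2601 CPM. Its mean of 3167 ± 801 CPM (SD, n = 2) ranked 10, between FN1 at 3564 ± 2173 CPM and ENO1 at 3167 ± 390 CPM, with overlapping ranges. Within a library, FTL ranked 9 in replicate 1 and 17 in replicate 2, and FTH1 ranked 4 and 8. Both subunits were higher in replicate 1. Together they took 0.924% of all counts in replicate 1 (95% Wilson interval 0.920 to 0.928%) and 0.644% in replicate 2 (0.640 to 0.647%). These intervals cover counting error only and treat each read as independent. The reads carry no molecular identifiers, so repeated reads of the same molecule cannot be told apart.

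The balance of the ferritin subunits was the same in both libraries within counting error, although each subunit differed between them. FTH1 gave 59.6% of the ferritin counts in replicate 1 (95% Wilson interval 59.4 to 59.8%) and 59.6% in replicate 2 (59.3 to 59.9%). In counts, FTH1 over FTL was 1.47 in each library. Per kilobase, the ratio depends on the length taken for FTH1: it was 0.641 in each library with all annotated exons, 2004 bp for FTH1 and 871 bp for FTL, and 1.07 with the canonical transcript, 1203 bp for FTH1. Which subunit mRNA was more abundant per length can thus not be stated. Reads of FTH1 and FTL are also uncertain because the annotation holds 25 genes named as FTH1 pseudogenes and 16 as FTL pseudogenes, whose reads may match the parent genes. Only 1 of each is listed in the files, FTH1P3 with 7 and 4 counts and FTLP10 with none. The testis ferritin FTHL17 and the mitochondrial ferritin FTMT had no counts.

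**Figure D1:**
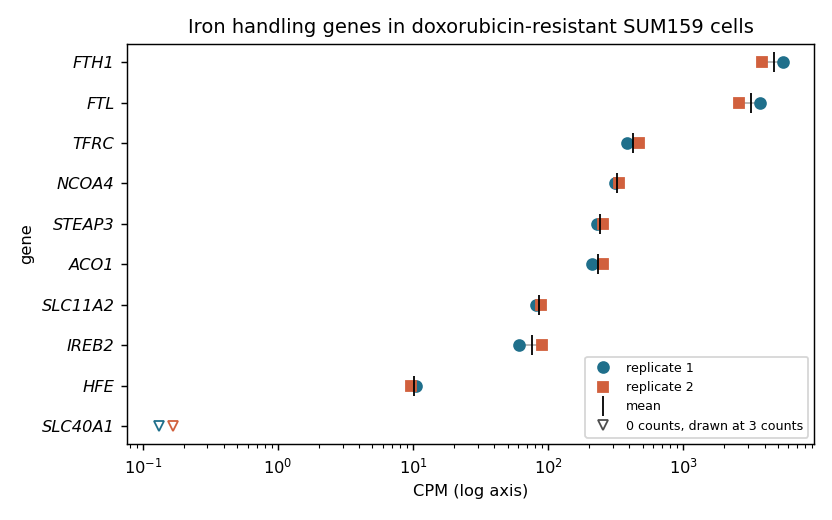
CPM on a log axis of the 10 iron handling genes in the doxorubicin-resistant libraries, with circles for replicate 1, squares for replicate 2 and vertical marks for their mean; open triangles stand at the limit of 3 counts for a gene without counts. FTH1 and FTL are the highest in both libraries, and SLC40A1 had no counts.

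Of the 10 genes, 9 reached a mean count of 20, the cutoff that the study applied to its bulk libraries, against 52.8% of all 23368 symbols. Their median level over the 10 genes was 237 CPM, and the median of all symbols that reach this minimum was 34.1 CPM. SLC40A1 was the only one without counts.

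SLC40A1, which encodes ferroportin, the only known iron exporter of mammalian cells, had 0 counts in both libraries. Whether reads of this gene were lost in mapping or counting cannot be checked without the reads. With 3 counts as the limit that a count of 0 allows, levels of up to 0.130 and 0.167 CPM would have been missed. The gene lies at chr2:190425316-190448484, minus strand, and 28.1% of all symbols had no counts in either library. Of 9 other coding genes within 500 kb, 7 reached a mean count of 20, among them the nearest on either side, WDR75 with 1929 and 1697 counts and ASNSD1 with 1345 and 1133. No annotated gene overlaps SLC40A1. Per kilobase of annotated exons, TFRC was at least 712-fold higher than SLC40A1 in replicate 1 and at least 688-fold higher in replicate 2, with 3 counts in each library as the limit for SLC40A1. With canonical transcripts the same limits were 1949-fold and 1883-fold. The copper-dependent iron oxidases that work with the exporter were also low or at 0: HEPH had no counts, HEPHL1 had 1 and 0, and CP, the gene of ceruloplasmin, had 9 in each library.

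Among the import genes, TFRC had the highest CPM. Per kilobase, the order of TFRC and STEAP3 depended on the length taken. With all annotated exons STEAP3 was above TFRC, at 53.1 against 24.6 CPM per kb on average. With canonical transcripts TFRC was above STEAP3, at 85.2 against 56.8 CPM per kb. The ranges of TFRC and STEAP3 did not overlap under either length. TFRC, the transferrin receptor (chr3:195739382-195809024, minus strand), had 8799 counts in replicate 1 and 8501 in replicate 2, which are 382 and 473 CPM. Its mean of 427 ± 64.2 CPM (SD, n = 2) ranked 315 among all symbols. STEAP3, the endosomal reductase that turns ferric into ferrous iron (chr2:119981407-120023228, plus strand), had 5301 and 4571 counts, 230 and 254 CPM. SLC11A2, the ferrous iron transporter DMT1 that carries iron out of the endosome (chr12:51373184-51422349, minus strand), was lower, with 81.5 and 89.2 CPM. In CPM all 3 were higher in replicate 2. TF, the gene of transferrin itself, had 1 and 0 counts, and TFR2, the second transferrin receptor, had none.

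NCOA4, the receptor that delivers ferritin to lysosomes for iron release (chr10:51565199-51590734, plus strand), had 7230 and 6011 counts, 314 and 334 CPM. The libraries were close for this gene, with a mean of 324 ± 14.5 CPM (SD, n = 2). Of the sensors, ACO1, which is an aconitase when it holds an iron-sulfur cluster and an RNA-binding protein when it does not (chr9:32384601-32454767, plus strand), had 4834 and 4579 counts, 210 and 255 CPM. IREB2, its relative that is degraded when iron is plentiful (chr15:78729773-78793795, plus strand), had 1408 and 1630 counts, 61.1 and 90.6 CPM. ACO1 was thus above IREB2 in both libraries. Per kilobase of annotated exons the ratio of ACO1 to IREB2 was 4.91 in replicate 1 and 4.02 in replicate 2, and with canonical transcripts it was 2.92 and 2.39.

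HFE, which binds the transferrin receptor and whose loss causes iron overload, was the lowest member with counts. It lies at chr6:26087509-26098571, plus strand. Its 241 counts in replicate 1 were 10.5 CPM (95% Wilson interval 9.22 to 11.9), and its 174 counts in replicate 2 were 9.67 CPM (8.34 to 11.2). These intervals overlap. A histone gene on the other strand, H2BC4, listed under its older symbol HIST1H2BC, overlaps HFE in the annotation and had 23 counts in each library. BEST1 overlaps FTH1 in the same way and had 20 and 15 counts. Annotated genes that are not listed in the files also overlap TFRC, SLC11A2, IREB2, NCOA4 and STEAP3. They lie on the other strand, except for a small RNA gene on the strand of SLC11A2. The study names a directional library kit but no strand setting for the counting, so reads in such overlaps cannot be assigned.

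**Figure D2:**
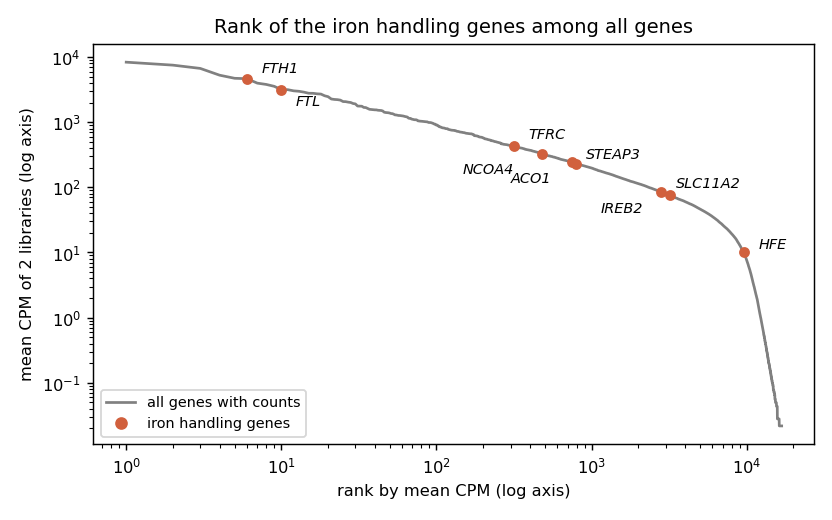
Mean CPM of the 2 libraries against rank, both on log axes, for all genes with counts (line) and the 9 iron handling genes with counts (points). The genes run from FTH1 at rank 6 and FTL at rank 10 to SLC11A2 at rank 2817, IREB2 at rank 3185 and HFE at rank 9554.

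Levels of the members were compared with each other per kilobase of annotated exons. In this order FTL was first with 3636 ± 919 CPM per kb (SD, n = 2), then FTH1 with 2330 ± 588, NCOA4 with 81.2 ± 3.63, STEAP3 with 53.1 ± 3.74, ACO1 with 30.7 ± 4.20, TFRC with 24.6 ± 3.70, SLC11A2 with 8.63 ± 0.554, IREB2 with 7.02 ± 1.93 and HFE with 1.77 ± 0.0977. Of neighbours in this order, only SLC11A2 and IREB2 had overlapping ranges. The annotation gives TFRC 17376 bp of exons, against 5012 bp in its canonical transcript, and with canonical lengths TFRC had 85.2 ± 12.8 CPM per kb (SD, n = 2), in the range of NCOA4 with 93.6 ± 4.18. SLC11A2 and IREB2 were then at 20.7 ± 1.32 and 12.0 ± 3.30, with ranges that no longer overlapped, whereas FTH1, with 3881 ± 980, overlapped FTL. The gap between the ferritin genes and all other members was kept under both lengths. FTH1 over TFRC was 125 and 70.4 per kilobase of annotated exons in replicates 1 and 2, and 60.0 and 33.8 with canonical transcripts, so that this ratio moved both with the library and with the length.

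**Figure D3:**
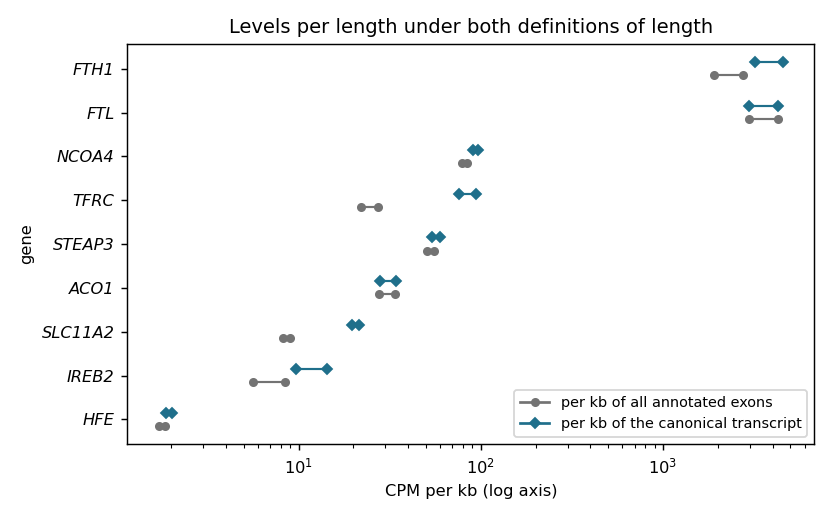
CPM per kilobase on a log axis for the 9 genes with counts; gray circles divide by all annotated exons, blue diamonds by the canonical transcript, and each pair of joined points is replicates 1 and 2. TFRC moves from 24.6 to 85.2 on average, whereas NCOA4, STEAP3, ACO1 and HFE move little.

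Differences between the libraries were tested in 13744 genes with the exact binomial test in edgeR, which asks whether 2 libraries differ beyond counting error and compares no conditions. The test called 8 of the 9 genes tested, against 57.7% of all genes tested. It finds smaller differences in genes with more counts, so these shares do not compare genes of equal counts. The median level was 237 CPM over the members and 34.1 CPM over all symbols with a mean count of at least 20. FTH1 and FTL were higher in replicate 1, by 1.43-fold and 1.44-fold, and TFRC, SLC11A2, IREB2, ACO1, NCOA4 and STEAP3 were higher in replicate 2. Among all genes, 27.6% were called higher in replicate 1 and 30.1% in replicate 2. The largest member difference toward replicate 2 was that of IREB2, with a log2 ratio of replicate 2 to replicate 1 of 0.56 (adjusted p = 2.16e-26, exact binomial test of edgeR). TFRC had 0.31 (adjusted p = 1.18e-43 in the same test), ACO1 0.28, STEAP3 0.14, SLC11A2 0.13 (adjusted p = 0.0150) and NCOA4 0.09, and HFE, with -0.11, was not called (adjusted p = 0.555). The median absolute log2 ratio was 0.28 over the members and 0.28 over all genes tested. At least 0.5 apart on the log2 scale were 3 members, FTH1, FTL and IREB2, against 21.1% of all genes.

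These differences moved with gene length. FTL and FTH1 have the shortest exonic lengths of the set, and the trend over all genes ran toward replicate 1 for short genes. A lowess trend of the log2 ratio on exonic length over 11781 genes gave -0.41 at the length of FTL, -0.31 at that of FTH1, 0.30 at that of IREB2 and 0.43 at that of TFRC. After the trend was taken off, FTL was at -0.11, FTH1 at -0.21 and IREB2 at 0.27. TFRC turned from 0.31 to -0.12 and SLC11A2 from 0.13 to -0.14, whereas NCOA4 and STEAP3 stood at 0.18 each and ACO1 at 0.12. An exact binomial test against the trend also finds smaller differences in genes with more counts. It still called 8 of the 9 genes, 4 above and 4 below the trend. Among all genes it called 53.1%, 26.9% above and 26.2% below. With canonical transcript lengths it called 6, against 47.1% of all genes: FTH1, FTL, ACO1 and HFE were below the trend, as were 22.5% of all genes, and TFRC and IREB2 above it, as were 24.6%. The direction for TFRC, SLC11A2, ACO1 and STEAP3 therefore depends on how length is treated, and FTH1, FTL, IREB2, NCOA4 and HFE kept theirs under both lengths. The median absolute distance from the trend was 0.15 over the members and 0.23 over all genes with a length. The part of gene length in the difference of any one gene was not tested.

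**Figure D4:**
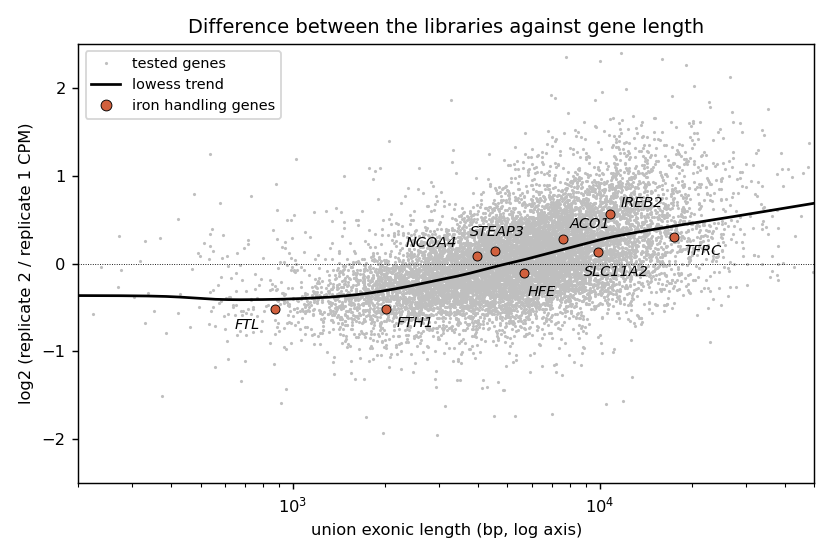
Log2 ratio of CPM, replicate 2 over replicate 1, against union exonic length in bp on a log axis, for tested genes (gray points), their lowess trend (line) and the 9 iron handling genes (filled points); 89 genes lie outside the axes. FTL and FTH1 lie at -0.52 among short genes and IREB2 at 0.56 among long ones.

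Other iron genes were read from lists to place these levels. Within a list, genes were ordered by CPM, which is not corrected for gene length. Their calls between the libraries stand against the 27.6% of all genes called higher in replicate 1 and the 30.1% called higher in replicate 2, and against 26.2% below and 26.9% above the length trend. Of 22 further genes of iron uptake, reduction and export, 11 reached a mean count of 20, and the list median was 0.702 CPM. The highest was SLC39A14, an importer of iron not bound to transferrin, with 192 and 229 CPM, followed by CYBRD1, a surface ferric reductase, with 98.2 ± 1.61 CPM (SD, n = 2), the scavenger receptor LRP1 with 83.4 ± 31.7 CPM and the metal importer SLC39A8 with 68.4 ± 3.54 CPM. Of 13 genes tested in this list, 2 were called higher in replicate 1 and 5 in replicate 2, and 2 lay below and 3 above the length trend.

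Of 16 genes of iron regulation and chaperoning, 11 reached a mean count of 20, with a list median of 35.1 CPM. Of 11 tested, 3 were called higher in replicate 1 and 5 in replicate 2, and 3 lay below and 4 above the length trend. HIF1A, a hypoxia factor whose hydroxylases need iron, had 1099 ± 110 CPM (SD, n = 2), and EPAS1, its relative, had 439 ± 73.3 CPM. The iron chaperones PCBP2 and PCBP1, which hand iron to ferritin, had 672 ± 92.9 and 381 ± 57.8 CPM. Per kilobase of annotated exons PCBP1 was above HIF1A, at 221 against 213 CPM per kb on average. FBXL5, the iron-sensing ubiquitin ligase adaptor that marks IREB2 for degradation, was far lower, with 26.4 ± 0.679 CPM. The 5 genes without counts were FTMT and genes of systemic iron control: HAMP, the hormone hepcidin, HFE2, BMP6 and TMPRSS6.

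All 26 genes of iron-sulfur cluster assembly reached a mean count of 20, with a median of 36.3 CPM. HSPA9, a mitochondrial chaperone, led with 606 ± 60.4 CPM (SD, n = 2), followed by GLRX5 with 101 ± 19.0 CPM, CIAO1 with 93.8 ± 1.13 CPM and MMS19 with 91.6 ± 2.63 CPM. Of 26 tested, 14 were called higher in replicate 1 and 2 in replicate 2, and of the 22 with a length 11 lay below the length trend and 0 above it. Of 21 genes of heme synthesis, transport and breakdown, 18 reached a mean count of 20, with a list median of 50.5 CPM. Of 18 tested, 10 were called higher in replicate 1 and 2 in replicate 2, and 9 lay below and 3 above the length trend. PGRMC1, a heme-binding membrane protein, had 163 ± 0.108 CPM, and HMOX1, the inducible heme oxygenase that frees iron from heme, had 167 and 106 CPM in replicates 1 and 2. UROD, an enzyme of heme synthesis, had 126 and 101 CPM in replicates 1 and 2. The erythroid form of the first enzyme of the pathway, ALAS2, had no counts, whereas the form used by other cells, ALAS1, had 57.1 ± 6.73 CPM.

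**Figure D5:**
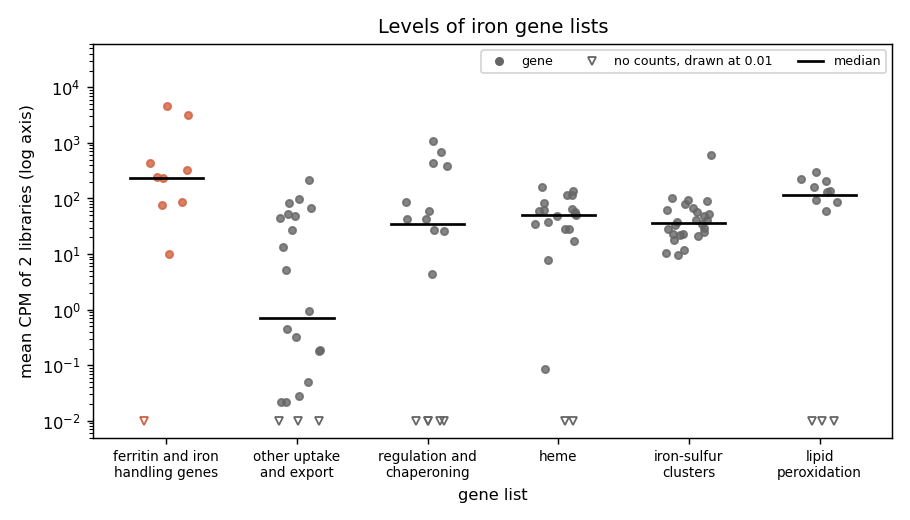
Log axis of the mean CPM of both libraries, for genes in 6 iron lists, with 1 point for each gene, horizontal bars at medians and open triangles, drawn at 0.01, for genes without counts. The ferritin and iron handling genes have a median of 237 CPM and the other uptake and export genes of 0.702 CPM.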

How the data were processed

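Doxorubicin-resistant SUM159 libraries, replicates 1 and 2, were analysed. The labels name TRI reagent and the methods of the study a column kit for RNA extraction. For each gene symbol the authors deposited raw counts of reads, made with FastQC, HISAT2 on hg19 and HTSeq in Galaxy. Their processing notes also list deepTools. The library kit named by the study is directional. Program versions, annotation and the use of strand in counting: not given in the sources used here. Reads with several matches may have been left out, which could lower genes with pseudogenes.

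CPM were computed from the total of all 23368 symbols, and a single count is 0.0434 and 0.0556 CPM in replicates 1 and 2. Of the symbols, 82.6% matched 1 gene of GENCODE 44 on GRCh37, which gave coordinates, exonic lengths and transcripts, and the printed hairpins were read again from the genome. Genes with at least 10 counts over both libraries were compared with the exact binomial test in edgeR, with Benjamini-Hochberg adjustment over all of them and calls below 0.05. With 1 condition no contrast was possible. Log2 ratios used a pseudocount of 0.5 CPM, and the lowess span was 0.3. Data were simulated with counting error only, over 13749 genes without and 11763 with a length trend. Of 200 2-fold differences between the libraries, seeded in well-counted genes, 100% were called. Of the other genes, 0.561% without and 0.104% with a length trend were called. The members differed by less than 2-fold, so the simulation does not cover differences of their size. Alternatives covered scaling, filter, pseudocount, length and each library left out. Canonical transcript lengths, the list calls against the length trend, the unfiltered test of each member and the neighbours of SLC40A1 were chosen after seeing the data.

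The members and gene lists were chosen with earlier results of these data known. Named genes are all 10 members, the 4 highest by CPM of each other list, the genes next to FTH1 and FTL in rank, and markers. FBXL5, PCBP1, PCBP2, HMOX1, SLC39A14 and CYBRD1 were named with their lists. CP, HEPH, HEPHL1, TF, TFR2, ALAS1, ALAS2, EPOR, STEAP1, VDAC2, VDAC3, the epithelial genes and other genes at 0 were named after their values were seen. Values per kilobase of list genes were also chosen then. A gene that the rule names in the heme list is not reported here. Protein sequences were not used here. Versions were R 4.3.3, edgeR 4.0.16, DESeq2 1.42.0 (size factors only), Python 3.11.15, pandas 2.3.3, numpy 2.4.6, matplotlib 3.10.9 and scipy 1.17.1.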

Additional observations from a re-analysis of the deposited data

How the results depend on the processing

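With TMM factors, DESeq2 size factors or no filter on low counts, each of the 9 members tested kept its call and direction. Other pseudocounts kept the directions and do not enter the test. Leaving out 1 of 2 libraries gives a value within 1 SD of the mean by construction, so it is no check of a level. A minimum mean count of 10 or 100 left 9 members measured. With a difference of at least 0.5 on the log2 scale required, 3 members in place of 8 were called, and against the trend on canonical transcript length 6. Minus the length trend, the log2 ratio turned to -0.12 for TFRC and -0.14 for SLC11A2. Minus the trend on canonical transcript length, it turned to -0.0033 for SLC11A2, -0.16 for ACO1 and -0.0066 for STEAP3, NCOA4 was no longer called (0.06, adjusted p = 0.0597 in the exact test) and HFE was (-0.36, adjusted p = 0.0281). The longest and the canonical transcript gave 1.07 for FTH1 over FTL and 2.65 for ACO1 over IREB2, in place of 0.641 and 4.46 on average, and the canonical transcript gave 46.9 for FTH1 over TFRC in place of 97.7. FTH1 over TFRC was 125 in replicate 1 alone and 70.4 in replicate 2 alone. No paired analysis was possible because the files hold 1 group. With 2 libraries of 1 condition the spread has 1 degree of freedom, and pseudogene reads limit FTH1 and FTL.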

Other observations

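Genes of iron-dependent lipid peroxidation were expressed in these cells, with 9 of 12 at or above a mean count of 20 and a median of 113 CPM. GPX4, the enzyme that reduces lipid peroxides, was the highest with 345 and 243 CPM in replicates 1 and 2, and NFE2L2, the regulator of antioxidant genes that include the ferritins, had 226 ± 2.87 CPM (SD, n = 2). ACSL4, which loads polyunsaturated fatty acids into lipids, had 172 and 233 CPM, and SLC7A11, the cystine importer, had 133 and 195 CPM. The 3 genes without counts were the lipoxygenases ALOX5, ALOX12 and ALOX15. GPX4 was called higher in replicate 1 and ACSL4 and SLC7A11 in replicate 2 in edgeR's exact test of counts (adjusted p = 9.39e-77, 5.51e-41 and 6.09e-53), which compares these libraries and not conditions. Minus the length trend the log2 ratio of replicate 2 to replicate 1 was -0.18 in place of -0.51 for GPX4, 0.16 in place of 0.43 for ACSL4 and 0.30 in place of 0.55 for SLC7A11. Of 9 genes tested in this list, 6 were called higher in replicate 1 and 2 in replicate 2, against 27.6% and 30.1% of all genes, and 3 lay below and 2 above the length trend, against 26.2% and 26.9%.

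The share of the ferritin genes in the counts of the 10 members was 87.8% in replicate 1 and 81.0% in replicate 2.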
